A study of Mus musculus with 16 samples.

Results

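The patellar tendon was compared with the Achilles tendon in RNA-seq libraries from mice of the inbred laboratory strain C57BL/6J. The comparison took every library that the labels give to these tendons, 4 Patellar and 4 Achilles, which are 8 of the 16 libraries of the series. The other 8 come from forelimb tendons. All mice were of the same strain, and the labels give no transgene, injury or treatment in any group, nor the age or sex of the animals. Each library is labelled with a mouse number from 1 to 4, and nothing in the labels says whether animals were pooled or whether a number shared by both tendons stands for a single animal. The p-values below therefore measure the spread between these libraries. The question is which genes differ between tendons of the same limb.

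Both tendons carry load across a hindlimb joint. The patellar tendon runs from kneecap to shin bone and has no muscle belly of its own, while the Achilles tendon anchors the calf muscles at the heel bone and carries fibrocartilage where it meets the heel. Tendon cells, guided by transcription factors such as Scleraxis and Mohawk, secrete type I collagen, which is trimmed, crosslinked and bound by small leucine-rich proteoglycans to form fibrils. In the embryo a limb's cells acquire their position from homeobox and T-box genes: Pitx1 and Tbx4 mark the hindlimb and Tbx5 the forelimb, Lmx1b sets the dorsal side, and Hox genes at the 5′ end of each cluster pattern the far end of the limb. Adult connective tissue cells keep part of this positional expression.

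The libraries differed in depth and content. Patellar libraries held 34559686 to 63235636 counts and 23499 to 29270 detected genes, and Achilles libraries held 84414005 to 97180849 counts and 30491 to 31416 detected genes. Log2 CPM correlated at a mean Pearson r of 0.922 across genes within Patellar, 0.982 within Achilles and 0.89 between the tendons. Patellar library 3 was distant from the remaining 3 on the second principal component, which held 21.2% of the variance. The 7 rRNA-like genes (Lars2, mt-Rnr1, mt-Rnr2, CT010467.1, Gm15564, Gm23935 and Gm26917) took 29.8, 13.2, 42.0 and 33.9% of Patellar and 4.27, 4.22, 4.91 and 3.30% of Achilles counts. Skeletal muscle markers took 1.31, 0.0895, 0.122 and 0.439% of Patellar and 9.06, 7.80, 14.7 and 8.66% of Achilles counts. Neither share overlapped between the tendons, so muscle content, rRNA-like content and tendon cannot be told apart by design.

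**Figure D1:**
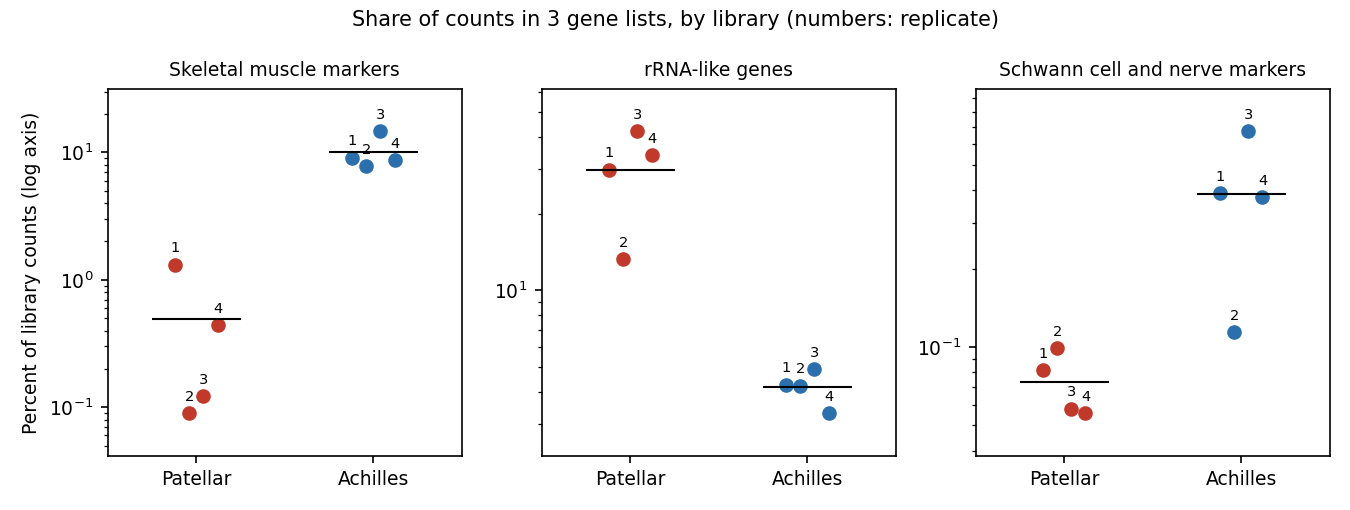
Percent of each library's counts in 3 gene lists, on log axes, with Patellar libraries (red) left of Achilles libraries (blue), a number for the replicate and a line for the mean. All 4 Patellar libraries lie below all 4 Achilles libraries in muscle markers and above them in rRNA-like genes, and Achilles library 2, at 0.114%, is the lowest Achilles library in Schwann cell and nerve markers.

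Of 21326 genes that passed the filter on low counts, 5854 differed between the tendons at an adjusted p under 0.05 by edgeR's quasi-likelihood test with Benjamini-Hochberg adjustment, 27.5% of those tested. Patellar was higher in 2589 of them, 12.1% of the genes tested, and lower in 3265, 15.3%. The median log2 fold change of all tested genes, always Patellar minus Achilles, was -0.015. The tendons did not overlap in CPM for 34.1% of genes, with Patellar higher in 13.9% and lower in 20.2%. Without Achilles library 1 the test called 3860 genes (18% of those tested, 7.02% higher and 11% lower) and without Achilles library 4 it called 3851 (17.9%, 7.12% higher and 10.8% lower). Without Patellar library 3 it called 31% (13.6% higher and 17.3% lower), and without replicate 3 of both tendons, a setting chosen after seeing the data, 23.6% (10.6% higher and 13.1% lower). A call in the same direction was made in all of 19 settings for 2462 genes, 898 higher and 1564 lower. These settings leave out the muscle covariate, the test for a change above 1 and the fit without replicate 3 of both tendons. Among the 19 was a filter at a mean of at least 5 CPM, which left 11474 genes to test. Genes below that level could not be among the 2462, whatever their result in the other settings. With the muscle markers' mean level as a covariate, 947 genes passed (4.44%, 2.32% higher and 2.12% lower), and 600 of the 5854 were among them in the same direction and 1 in the opposite direction. Levels below are TMM-scaled CPM (counts normalized to library size), given for libraries 1 to 4 in that order, and every adjusted p is from this edgeR test. Since the libraries are bulk tissue, fewer cells of a type and less RNA per cell cannot be told apart. Counts of list members below are to be read against 12.1% of all genes higher and 15.3% lower.

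Limb position genes separated the tendons. The dorsal gene Lmx1b, the forelimb gene Tbx5 and 6 genes of the Hoxc cluster were higher in Patellar, and 4 genes at the 5′ ends of Hox clusters were lower. Lmx1b (chromosome 2, 33560965 to 33640511), the dorsal determinant, was at 7.38, 4.03, 2.43 and 3.70 CPM in Patellar and 0.0416, 0.260, 0.456 and 0.171 CPM in Achilles. The tendons did not overlap, and the gene was low in all 8 libraries. Its log2 fold change was 4.23 ± 0.68 (SE, adjusted p = 0.00262). En1, which marks the ventral ectoderm of the embryonic limb and was chosen after its values were seen, ran the other way, at 0.512, 0.559, 0.254 and 0.448 CPM in Patellar and 1.73, 1.62, 2.05 and 1.47 CPM in Achilles. Its fold change was -1.93 ± 0.37 (adjusted p = 0.00542), without overlap. Both genes passed without each library in turn.

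The hindlimb identity genes Pitx1 and Tbx4 were present in both tendons. Pitx1 (chromosome 13, 55825051 to 55836192) was at 82.6, 46.2, 52.4 and 73.5 CPM in Patellar and 17.0, 32.4, 12.2 and 19.1 CPM in Achilles. All Patellar libraries exceeded all Achilles libraries, with a difference of 1.66 ± 0.31 on the log2 scale (adjusted p = 0.00497). Tbx4 was at 21.0, 21.2, 9.60 and 27.6 CPM in Patellar and 13.9, 20.2, 9.82 and 13.1 CPM in Achilles, overlapped and did not pass (0.48 ± 0.32, adjusted p = 0.304). Isl1, a LIM homeobox gene of the early hindlimb field, was at 1.02, 0.0133, 0.978 and 0.392 CPM in Patellar and 7.85, 16.4, 6.38 and 11.7 CPM in Achilles, without overlap. It was lower, at -4.19 ± 0.85 (adjusted p = 0.00719). Of the 6 hindlimb genes tested, 3 were higher and 2 lower. Forelimb tendons also held some of these transcripts. On the scale of all 16 libraries, Tbx4 averaged 19.0 CPM in Patellar, 13.6 in Achilles, 21.7 in flexor and 4.26 in supraspinatus libraries. Pitx1 averaged 60.95, 19.3, 0.226 and 12.35 CPM in the same order.

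The forelimb gene Tbx5 (chromosome 5, 119832668 to 119885219) was at 9.26, 6.67, 8.69 and 8.26 CPM in Patellar and 0.479, 0.146, 0.255 and 0.438 CPM in Achilles. Patellar libraries were close to each other and far above all Achilles libraries, at 4.63 ± 0.41 on the log2 scale (adjusted p = 0.000479). On the scale of all 16 libraries, Tbx5 averaged 7.88 CPM in Patellar, 0.315 CPM in Achilles, 20.3 CPM in supraspinatus and 50.8 CPM in forepaw flexor libraries, so its Patellar level was above the other hindlimb tendon and below both forelimb tendons. All 4 forelimb genes tested were higher in Patellar, with a median log2 fold change of 2.63, but 3 of them are Hoxc genes.

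**Figure D2:**
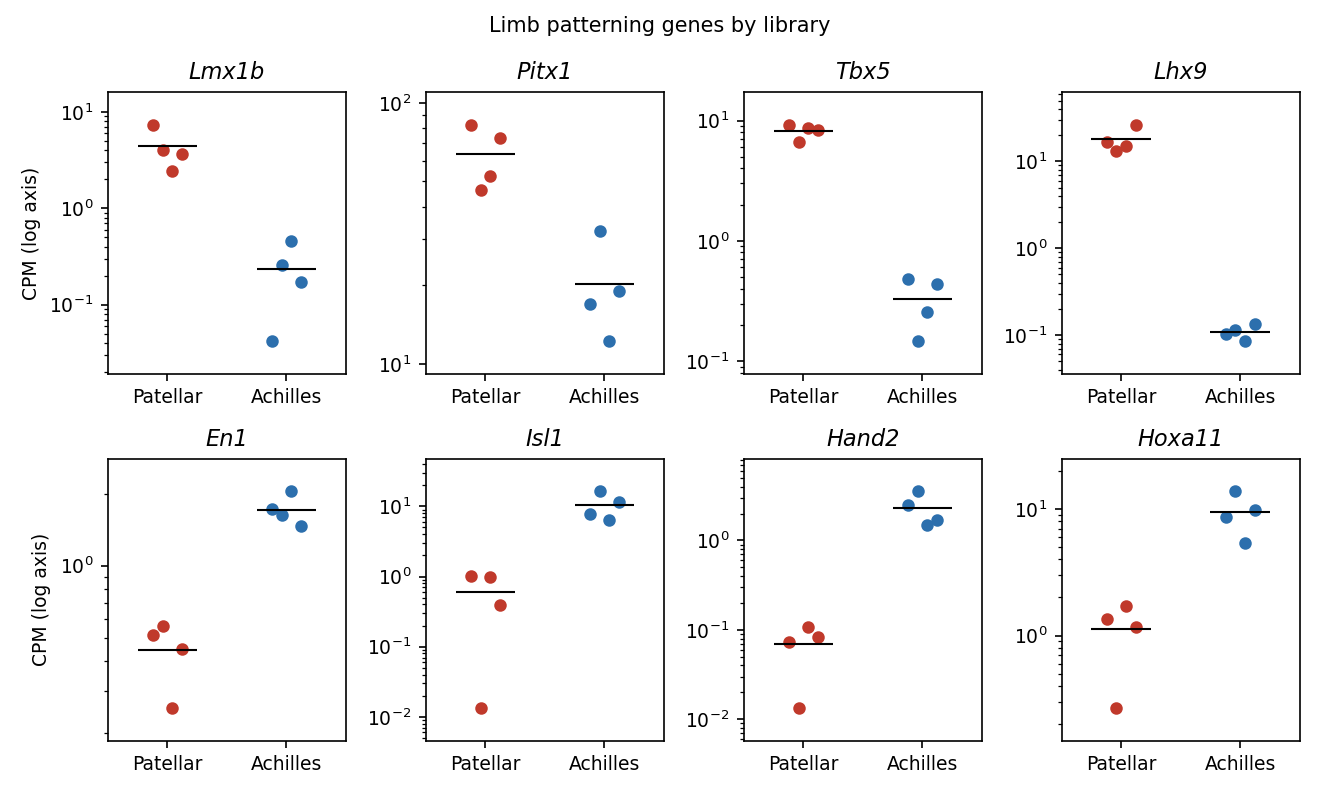
CPM of 8 limb patterning genes on log axes, with Patellar libraries (red) left of Achilles libraries (blue) and a line at the mean. Lmx1b, Pitx1, Tbx5 and Lhx9 lie higher in all 4 Patellar libraries, and En1, Isl1, Hand2 and Hoxa11 lower, with no overlap for any of the 8.

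The Hoxc cluster, on chromosome 15, split by position. All 7 tested genes passed, against 27.5% of all genes: Hoxc4, Hoxc5, Hoxc6, Hoxc8, Hoxc9 and Hoxc10 were higher in Patellar and Hoxc11 was lower, and no gene overlapped. The other 2 listed members, Hoxc12 and Hoxc13, were below the filter. Hoxc8 (102990607 to 102994111) was at 31.3, 28.4, 41.0 and 38.3 CPM in Patellar and 2.44, 2.37, 2.97 and 2.61 CPM in Achilles, within a narrow range in each tendon. Its log2 fold change of 3.74 ± 0.18 was the largest of the cluster (adjusted p = 3.75e-05). Hoxc6 was higher by 2.77 ± 0.20, Hoxc9 by 2.51 ± 0.28, Hoxc5 by 2.49 ± 0.23 and Hoxc4 by 2.05 ± 0.30 (adjusted p = 0.000288, 0.000767, 0.000479 and 0.00197).

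Towards the 5′ end the Hoxc difference narrowed and then turned. Hoxc10, a hindlimb gene, was at 36.3, 24.3, 20.6 and 29.8 CPM in Patellar and 13.6, 14.97, 20.1 and 14.4 CPM in Achilles. It was higher by 0.82 ± 0.21 (adjusted p = 0.0188), and it did not pass without Achilles library 1 (adjusted p = 0.0639), without Achilles library 2 (adjusted p = 0.0522) and without Achilles library 4 (adjusted p = 0.0619). Nor did Hoxc10 pass with the mouse number as a block (adjusted p = 0.0706) or with all 16 libraries in the fit (adjusted p = 0.119). Hoxc11 was at 0.341, 0.320, 0.290 and 0.252 CPM in Patellar and 3.32, 3.28, 3.53 and 3.05 CPM in Achilles, low and tightly grouped in both tendons. It fell by 3.44 ± 0.30 on the log2 scale (adjusted p = 0.000441). With muscle markers as a covariate all 7 genes still passed in the same direction.

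In the Hoxa and Hoxd clusters, genes near the 5′ end were also lower in Patellar. In the Hoxa cluster 5 of 11 tested genes were higher, with fold changes of up to 2.31, and Hoxa11 and Hoxa13 were lower. Of the 5, 3 passed without Achilles library 1, 2 or 4 or without Patellar library 4. Hoxa11 was at 1.34, 0.266, 1.70 and 1.18 CPM in Patellar and 8.71, 13.9, 5.44 and 9.83 CPM in Achilles, and Hoxa13 did not exceed 0.120 CPM in Patellar or 1.11 CPM in Achilles. Their fold changes were -3.10 ± 0.54 and -3.86 ± 0.53 (adjusted p = 0.00367 and 0.00153). In the Hoxd cluster 1 of 4 tested genes passed, Hoxd11, lower at -4.50 ± 0.74 (adjusted p = 0.00301), and Hoxd12 and Hoxd13 were below the filter. With the muscle covariate 0 of the 7 Hoxa calls and of the 1 Hoxd call passed, and the 3 lower genes were at -2.41 (Hoxa11), -4.58 (Hoxa13) and -3.91 (Hoxd11), with adjusted p = 0.296, 0.079 and 0.273. In the Hoxb cluster 3 of 7 were higher and 0 lower, with no library above 1.59 CPM (Hoxb4), and none of the 3 passed without Patellar library 4, without any 1 of the Achilles libraries or with the muscle covariate.

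**Figure D3:**
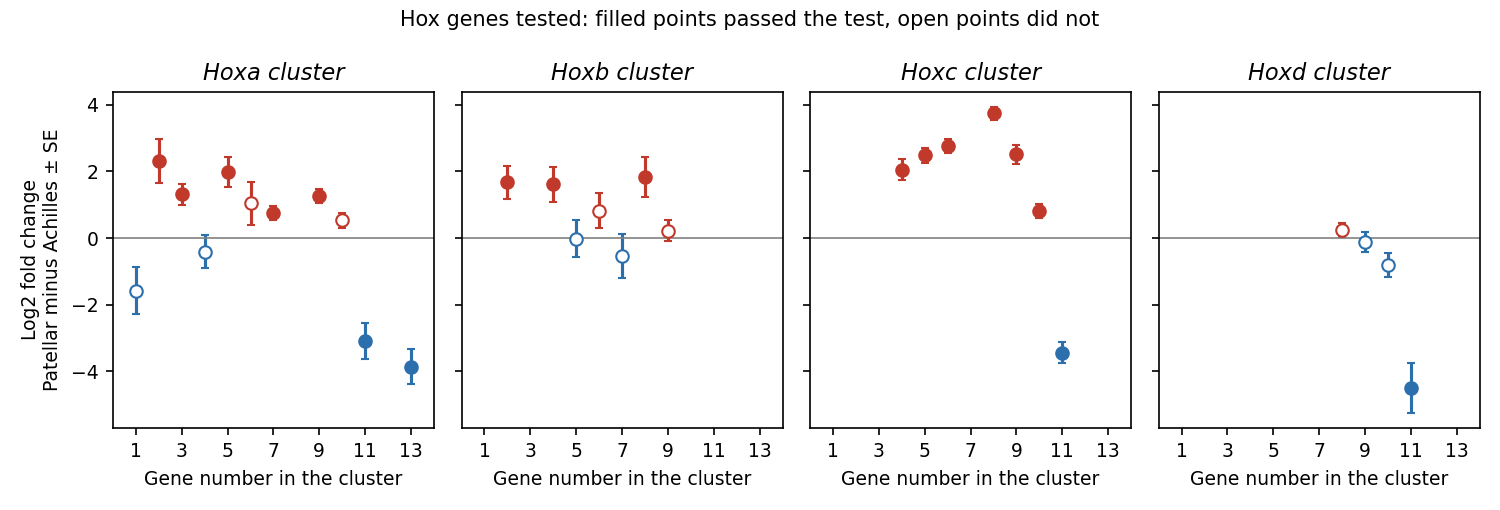
Log2 fold change, Patellar minus Achilles, with its standard error (bars) for the tested genes of the 4 Hox clusters, against the gene's number in the cluster; filled points passed the test, red is higher and blue lower in Patellar. Genes 4 to 10 of Hoxc lie above 0, and Hoxa11, Hoxc11 and Hoxd11 lie between -3.10 and -4.50.

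Other patterning genes differed by more. Lhx9, a LIM homeobox gene of the limb bud, had the largest rise of any limb gene listed, at 17.0, 13.2, 14.99 and 26.6 CPM in Patellar and 0.104, 0.115, 0.0849 and 0.133 CPM in Achilles. It was near absent from Achilles and higher by 7.33 ± 0.34 in Patellar (adjusted p = 3.75e-05). Mab21l2, needed for eye and body wall development, was at 39.6, 31.4, 38.1 and 51.2 CPM in Patellar and 0.833, 1.22, 0.520 and 1.39 CPM in Achilles, again without overlap (5.33 ± 0.34, adjusted p = 0.000192). Twist1, a transcription factor of limb mesenchyme, was higher by 2.54 ± 0.27 (adjusted p = 0.000733). Hand2, which sets the posterior side of the limb bud, was nearly absent from Patellar, at 0.0731, 0.0133, 0.109 and 0.0840 CPM in Patellar and 2.48, 3.55, 1.48 and 1.70 CPM in Achilles (-5.16 ± 0.63, adjusted p = 0.00107). Tbx15, a T-box gene of limb skeleton and muscle, was lower by a smaller amount (-1.32 ± 0.16, adjusted p = 0.00101).

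Of 19 tested dorsoventral and other patterning genes, 9 were higher and 6 lower, with a median of 0.64, against 12.1% of all genes higher and 15.3% lower. Proximal limb genes gave 4 higher and 0 lower of 11, and 4 of 8 distal genes were lower and 1, Lhx9, higher. The lower distal genes include Hoxa11, Hoxa13 and Hoxd11, which were already counted in their Hox clusters. With the muscle covariate 1 of the 4 proximal calls and 0 of the 4 lower distal calls passed, and Lhx9 passed. Emx2, which patterns the shoulder and hip girdles, was at 9.65, 8.80, 23.1 and 18.4 CPM in Patellar and 1.97, 1.33, 1.51 and 1.71 CPM in Achilles. Shox2, needed for the upper limb segment, was at 26.3, 27.9, 30.4 and 36.5 CPM in Patellar and 11.7, 12.8, 8.11 and 11.4 CPM in Achilles. Neither overlapped, and they were higher by 3.20 ± 0.36 and 1.46 ± 0.18 (adjusted p = 0.00079 and 0.00119).

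Tendon transcription factors moved in both directions. Of 8 tested, 4 were higher and 3 lower. Scx (chromosome 15, 76457452 to 76459458), the earliest marker of tendon progenitors, was at 136, 88.2, 92.5 and 111 CPM in Patellar and 23.5, 24.5, 12.6 and 18.1 CPM in Achilles. Every Patellar library was well above the highest Achilles library (2.44 ± 0.24, adjusted p = 0.000531). Mkx, which maintains the tendon fate, was at 118, 67.5, 88.6 and 113 CPM in Patellar and 31.4, 61.5, 29.8 and 49.6 CPM in Achilles, higher by 1.17 ± 0.27 (adjusted p = 0.0124). Eya2 and Eya1, related transcriptional co-activators, split. Eya2 was at 29.6, 12.4, 25.03 and 55.3 CPM in Patellar and 5.68, 4.89, 4.38 and 7.24 CPM in Achilles, higher by 2.46 ± 0.41 (adjusted p = 0.00313). Eya1 was at 1.998, 2.56, 2.43 and 3.50 CPM in Patellar and 9.87, 7.83, 17.7 and 10.1 CPM in Achilles, lower at -2.12 ± 0.31 (adjusted p = 0.002). Eya1 is also a muscle lineage gene, and muscle markers took 0.491% of Patellar and 10.05% of Achilles counts on average. With the muscle covariate Eya1 was at -1.85, close to -2.12 without it, and did not pass (adjusted p = 0.206). Muscle content and tendon cannot be told apart here.

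Of 32 collagen genes tested in 3 lists, 16 were higher in Patellar and 6 lower, against 12.1% and 15.3% of all genes. Of 11 fibrillar collagens, 6 were higher and 1 lower, with a median log2 fold change of 1.26, and together they took 4.90, 5.78, 2.44 and 3.31% of Patellar and 2.06, 2.59, 0.801 and 2.28% of Achilles counts. Col1a1, a chain of the main tendon collagen, was at 21620.0, 19268, 12317 and 13955 CPM in Patellar and 5557, 8227, 2678 and 7481 CPM in Achilles. All Patellar libraries exceeded all Achilles libraries. The fold change was 1.49 ± 0.40 (adjusted p = 0.0226), but it did not pass without Achilles library 1 (adjusted p = 0.0695). Col1a2 was higher by 1.26 ± 0.39 (adjusted p = 0.0395), and it did not pass without Achilles library 1, Achilles library 4, Patellar library 1, Patellar library 2 or Patellar library 4 (adjusted p between 0.0681 and 0.111). Col3a1, a thinner-fibril collagen, was at 9517, 7785, 4513 and 6069 CPM in Patellar and 5074, 4184, 1478 and 3555 CPM in Achilles, overlapped and did not pass (0.96 ± 0.40, adjusted p = 0.106). Col3a1 did pass by DESeq2 (adjusted p = 0.0239), with the mouse number as a block (adjusted p = 0.0484) and with all 16 libraries (adjusted p = 0.0418). Of the 6 higher calls, 3 passed without Achilles library 1 and 1 with the muscle covariate.

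The regulatory type XI collagens gave a clearer separation. Col11a2 was at 276, 219, 299.9 and 336 CPM in Patellar and 42.2, 67.0, 40.6 and 86.8 CPM in Achilles, higher by 2.26 ± 0.27 (adjusted p = 0.00102). Col11a1, its partner chain, was at 510.0, 248, 268 and 355 CPM in Patellar and 80.5, 132, 64.9 and 115 CPM in Achilles, higher by 1.81 ± 0.30 (adjusted p = 0.00295). Neither gene overlapped, and both passed without each library in turn. Col27a1, a cartilage collagen, was higher by 1.47 ± 0.33. Col24a1, found in developing bone, was the exception among fibrillar collagens, at 1.58, 1.38, 0.833 and 2.38 CPM in Patellar and 12.4, 15.8, 18.4 and 16.4 CPM in Achilles (-3.34 ± 0.32, adjusted p = 0.000529).

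Of 8 collagens at fibril surfaces, 3 were higher and 3 lower, and without Achilles library 4 1 of each 3 passed. Col12a1, which links fibrils in load-bearing tissue, was at 498, 349, 244 and 508 CPM in Patellar and 106, 153, 114 and 165 CPM in Achilles, higher by 1.57 ± 0.26 (adjusted p = 0.00326). Col22a1, which marks the muscle-tendon junction, was at 15.4, 1.94, 0.761 and 3.95 CPM in Patellar and 194, 195, 186 and 189.5 CPM in Achilles. It was far lower in all 4 Patellar libraries (-5.11 ± 0.82, adjusted p = 0.00261), and Patellar library 1, which has the most muscle markers of the 4 (1.31%), was the highest among them. Of 13 basement membrane and beaded collagens, 7 were higher and 2 lower. Of the 7, 4 passed without Patellar library 1 or Achilles library 1, 2 or 3, 3 without Achilles library 4 and 1 with the muscle covariate. Col15a1 was higher by 1.56 ± 0.29, Col6a3 by 1.66 ± 0.41 and Col4a4 by 1.46 ± 0.26, while Col4a2, a vascular basement membrane chain, was lower at -1.04 ± 0.24 (adjusted p = 0.00522, 0.0164, 0.00382 and 0.0129). Col6a3 did not pass without Achilles library 4 (adjusted p = 0.0531). Markers of endothelial cells, which make vessel basement membrane, took 0.0367, 0.179, 0.0958 and 0.0643% of Patellar and 0.211, 0.159, 0.146 and 0.157% of Achilles counts, and the shares overlapped. Over totals without the rRNA-like, mitochondrial and red blood cell genes they averaged 0.135% in Patellar and 0.180% in Achilles. Of 20, 5 were lower and 0 higher, and 1 of the 5 passed without Achilles library 1.

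Many genes of collagen processing and crosslinking were higher in Patellar. Of 32 tested, 14 were higher and 2 lower, against 12.1% and 15.3% of all genes, with a median of 0.91. Bmp1, which removes the carboxyl propeptide of procollagen, was at 227, 155, 168 and 282 CPM in Patellar and 48.7, 54.8, 35.9 and 40.8 CPM in Achilles. Adamts3, which removes the amino propeptide, was at 27.8, 13.5, 16.7 and 28.9 CPM in Patellar and 3.80, 3.03, 1.44 and 4.77 CPM in Achilles. Their fold changes were 2.21 ± 0.23 and 2.73 ± 0.40 (adjusted p = 0.000659 and 0.00197), and neither overlapped. The prolyl 3-hydroxylase P3h3 and its complex partner Crtap were higher by 1.83 ± 0.27 and 1.33 ± 0.22 (adjusted p = 0.002 and 0.00294). Of the 14, 13 passed without Achilles library 1, 13 without Achilles library 4, 14 without Patellar library 3 and 4 with the muscle covariate, and all 14 kept a positive fold change with it.

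**Figure D4:**
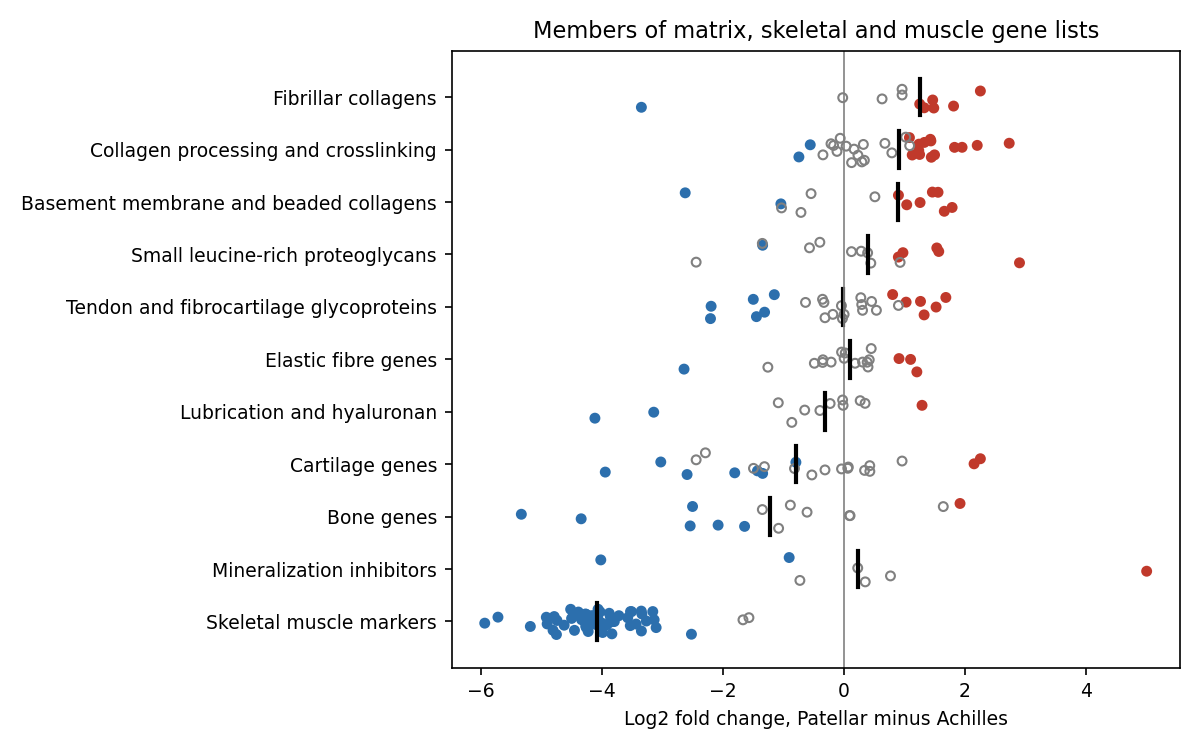
Log2 fold change, Patellar minus Achilles, of each tested member of 11 gene lists; filled points passed the test (red higher, blue lower in Patellar), open points did not, and black bars are list medians. Fibrillar collagens and collagen processing genes lie mostly above 0, with medians of 1.26 and 0.91, bone genes mostly below 0, with a median of -1.21, and muscle markers between -5.93 and -1.57.

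Small leucine-rich proteoglycans, which bind fibrils and set their thickness, were higher in 5 of 15 and lower in 1, with a median of 0.40, against 12.1% of all genes higher and 15.3% lower. Of the 5, 2 passed without Achilles library 1 and 0 with the muscle covariate. Kera (keratocan) was at 354, 358, 232 and 387 CPM in Patellar and 34.9, 58.9, 20.3 and 63.7 CPM in Achilles, without overlap (2.90 ± 0.36, adjusted p = 0.00116). Prelp was at 4499, 3252, 2104 and 3165 CPM in Patellar and 1074, 1583, 632 and 1195 CPM in Achilles and higher by 1.54 ± 0.34 (adjusted p = 0.00988). Fmod (fibromodulin), which binds type I collagen, was higher by 1.57 ± 0.39 (adjusted p = 0.0159), and it did not pass without Achilles library 1 (adjusted p = 0.0554). Chad (chondroadherin), a cartilage member of the family, ran the other way, at 2193, 2777, 2033 and 1996 CPM in Patellar and 4025, 8935, 3399 and 6437 CPM in Achilles (-1.34 ± 0.34, adjusted p = 0.0178), and it did not pass without Patellar library 4 (adjusted p = 0.0554).

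Tendon and fibrocartilage glycoproteins split evenly, with 6 of 26 higher, 6 lower and a median of -0.01, against 12.1% of all genes higher and 15.3% lower. Of the 6 higher, 2 passed without Achilles library 1, 3 without Achilles library 3 or Patellar library 2 and 0 with the muscle covariate, where 1 of the 6 lower passed. Tnxb (tenascin-X), whose loss makes connective tissue lax, was at 837, 558, 538 and 717 CPM in Patellar and 205, 282, 132 and 204 CPM in Achilles, higher by 1.69 ± 0.26 (adjusted p = 0.00227). Thbs1 (thrombospondin 1) was at 144, 252, 223 and 165 CPM in Patellar and 495, 769, 340.2 and 605 CPM in Achilles, lower at -1.50 ± 0.28 (adjusted p = 0.00521). Matn4 and Postn were lower at -2.20 ± 0.45 and -1.44 ± 0.30 (adjusted p = 0.00712 and 0.00787). Tnmd (tenomodulin), a marker of mature tendon cells, was at 422, 366, 223 and 322 CPM in Patellar and 171, 197, 126 and 268 CPM in Achilles. The tendons overlapped, and the difference of 0.81 ± 0.27 had an adjusted p of 0.0489. It did not pass without Patellar library 1, 2 or 4 or without Achilles library 1, 2 or 3 (adjusted p between 0.0901 and 0.129). Comp and Thbs4 overlapped and did not pass (-0.31 ± 0.37 and 0.54 ± 0.33, adjusted p = 0.568 and 0.261).

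Matrix proteases and their inhibitors gave 7 higher and 6 lower of 36, against 12.1% and 15.3% of all genes. Of the 6 lower, 3 passed without Achilles library 1, 3 or 4 and 2 with the muscle covariate, where 0 of the 7 higher passed. Adamts20, a versican-cleaving protease, was at 2.80, 2.98, 3.59 and 1.74 CPM in Patellar and 21.0, 14.8, 27.9 and 18.6 CPM in Achilles (-2.89 ± 0.29, adjusted p = 0.000555). Mmp23 and the secreted serine protease Htra1 were higher by 1.32 ± 0.17 and 1.39 ± 0.21 (adjusted p = 0.00136 and 0.00206). Among 18 elastic fibre genes, 3 were higher and 1 lower, and 1 of the 3 passed without Patellar library 2 or Achilles library 2 or 4. Efemp2 (fibulin 4), needed for elastic fibre assembly, was at 104, 74.2, 102 and 81.9 CPM in Patellar and 40.1, 45.3, 29.7 and 41.7 CPM in Achilles, higher by 1.21 ± 0.17 (adjusted p = 0.00178). Fbn2, the fibrillin of developing tissue, was lower at -2.64 ± 0.56 (adjusted p = 0.00841).

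Several genes tied to bone and mineral were lower in Patellar. Spp1 (osteopontin), a secreted inhibitor of crystal growth, was at 191, 90.2, 61.2 and 48.0 CPM in Patellar and 1487, 2348, 1149.7 and 1327 CPM in Achilles. Ibsp (bone sialoprotein), which nucleates mineral, was at 40.2, 27.9, 24.5 and 13.8 CPM in Patellar and 304, 847, 373 and 633 CPM in Achilles. Every Patellar library lay below every Achilles library for both genes, and the fold changes were -4.02 ± 0.48 and -4.34 ± 0.44 (adjusted p = 0.00102 and 0.000624). Dlx5, a transcription factor of bone-forming cells, was at 0.560, 0.0932, 0.217 and 0.140 CPM in Patellar and 5.73, 17.5, 4.70 and 12.1 CPM in Achilles (-5.33 ± 0.69, adjusted p = 0.00132). Phex and Bglap2 (osteocalcin), both mineral-regulating genes of bone cells and both low, were lower at -2.54 ± 0.58 and -2.50 ± 0.60 (adjusted p = 0.0119 and 0.0142). Phex did not pass with the mouse number as a block (-2.61, adjusted p = 0.053). Bglap2 did not pass without replicate 3 of both tendons (adjusted p = 0.0547). Of 14 bone genes tested, 6 were lower and 1 higher, against 15.3% and 12.1% of all genes, with a median of -1.21. Together the list took 0.00727, 0.00968, 0.00700 and 0.00586% of Patellar and 0.0426, 0.112, 0.0437 and 0.0815% of Achilles counts. Of the 6, 4 passed without Patellar library 1 or Achilles library 1, 3 or 4, and with the muscle covariate all 6 were lower in Patellar and 0 passed.

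Of 7 mineralization inhibitors, 1 was higher and 2 lower, against 12.1% and 15.3% of all genes. Mgp (matrix Gla protein) was lower at -0.90 ± 0.24 (adjusted p = 0.0207), and it did not pass without Achilles library 1 (adjusted p = 0.0504) and without Patellar library 4 (adjusted p = 0.0602). Abcc6, the transporter whose loss causes soft tissue calcification, was higher but low, at 3.12, 1.01, 4.67 and 1.26 CPM in Patellar and 0.135, 0.0416, 0.0318 and 0.0952 CPM in Achilles (5.01 ± 0.72, adjusted p = 0.00178).

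Of 23 cartilage genes, 7 were lower and 2 higher, with a median of -0.79, against 15.3% of all genes lower and 12.1% higher. Of the 7, 4 passed without Achilles library 1 or 3, 3 without Achilles library 4, 2 without Patellar library 4 and 0 with the muscle covariate. Cytl1, a cytokine-like protein of cartilage cells, was at 35.6, 10.2, 13.3 and 4.00 CPM in Patellar and 241, 274, 215 and 241 CPM in Achilles (-3.94 ± 0.58, adjusted p = 0.00197). Hapln1, which links aggrecan to hyaluronan, was lower at -1.80 ± 0.40 (adjusted p = 0.0102). The defining genes of cartilage did not pass: Sox9 was at 0.07 ± 0.39 and Acan (aggrecan) at -0.04 ± 0.75 (adjusted p = 0.918 and 0.976). Acan ranged from 7.50 to 120.5 CPM within Patellar and from 29.1 to 60.2 CPM within Achilles.

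**Figure D5:**
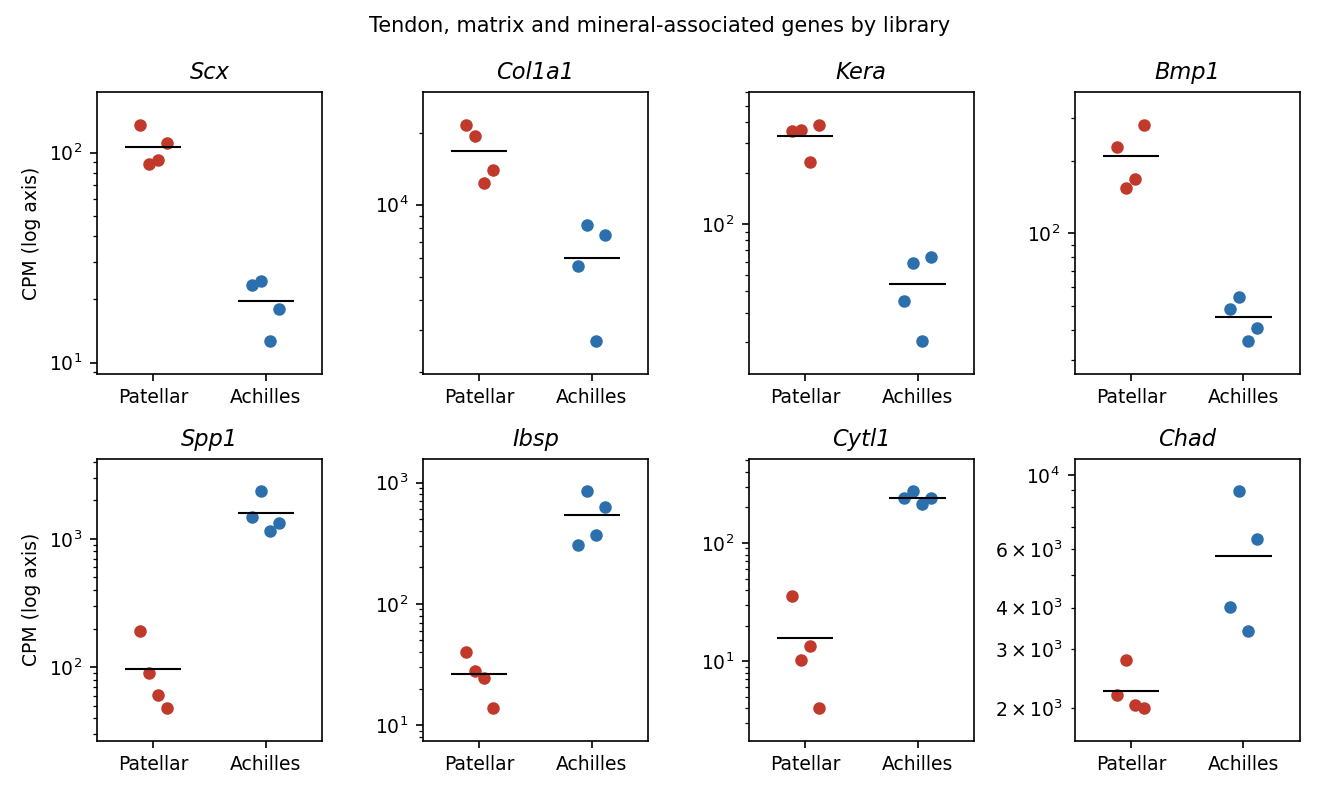
CPM of 8 tendon, matrix and mineral-associated genes on log axes, with Patellar libraries (red) left of Achilles libraries (blue) and a line at the mean. Scx, Col1a1, Kera and Bmp1 lie higher and Spp1, Ibsp, Cytl1 and Chad lower in all 4 Patellar libraries, with no overlap.

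Of 12 lubrication and hyaluronan genes tested, 2 were lower and 1 higher, near the 15.3% and 12.1% of all genes. Clic5, a chloride channel protein of lining cells, was at 19.3, 18.1, 6.12 and 14.8 CPM in Patellar and 229, 229, 284 and 269 CPM in Achilles, and Htra4, a protease of synovial lining cells, was at 10.2, 5.54, 2.93 and 8.85 CPM in Patellar and 53.0, 93.2, 44.6 and 52.3 CPM in Achilles. Neither overlapped (-4.11 ± 0.34 and -3.14 ± 0.40, adjusted p = 0.00042 and 0.00125). Clic5 is also present in skeletal muscle. Prg4 (lubricin), which coats gliding surfaces, was at 2187, 1370.0, 1362 and 1338 CPM in Patellar and 2080.2, 4140.5, 2427 and 2698 CPM in Achilles. It overlapped and did not pass (-0.86 ± 0.29, adjusted p = 0.0537). It passed without Patellar library 1 (-1.07, adjusted p = 0.0266), by DESeq2, by limma with voom, with no filter and with all 16 libraries (adjusted p between 0.00892 and 0.0284). Cd44, the hyaluronan receptor, was higher by 1.29 ± 0.33 (adjusted p = 0.0175), and it did not pass without Achilles library 4 (adjusted p = 0.0559).

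Signalling genes passed in both directions, to be read against 12.1% higher and 15.3% lower over all genes. BMP and GDF genes gave 6 higher and 5 lower of 29. Bmp4 was at 76.9, 42.7, 35.5 and 132 CPM in Patellar and 21.4, 17.4, 12.5 and 21.1 CPM in Achilles, higher by 1.99 ± 0.40 (adjusted p = 0.00687). Grem1 and Sostdc1, both secreted BMP antagonists, were lower at -4.84 ± 0.53 and -3.32 ± 0.66 (adjusted p = 0.000761 and 0.0063). Gdf5, the joint and tendon ligand, was at 0.463, 1.30, 0 and 0.224 CPM in Patellar and 7.67, 10.98, 3.21 and 7.98 CPM in Achilles (-3.81 ± 0.87, adjusted p = 0.0114). It was low throughout, and 1 Patellar library had 0 counts. TGF-beta genes gave 3 higher and 3 lower of 18, and 1 of the 3 higher passed without Patellar library 1 or any 1 of the Achilles libraries. Inhba, the activin A subunit, was at 117, 42.0, 48.7 and 80.3 CPM in Patellar and 26.6, 21.8, 17.8 and 16.7 CPM in Achilles, higher by 1.80 ± 0.32 (adjusted p = 0.0043), while the signal transducer Smad3 was lower at -0.87 ± 0.12 and the ligand gene Tgfb1 at -1.13 ± 0.24 (adjusted p = 0.00171 and 0.00905).

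Wnt antagonists moved in opposite directions. Dkk2 was at 80.2, 133, 106 and 138 CPM in Patellar and 26.0, 29.4, 26.2 and 36.2 CPM in Achilles, higher by 1.96 ± 0.20 (adjusted p = 0.000624). Frzb, a secreted Wnt antagonist of joints, was at 2.22, 1.12, 8.19 and 3.36 CPM in Patellar and 57.2, 77.2, 56.6 and 74.8 CPM in Achilles (-4.19 ± 0.55, adjusted p = 0.00137). Both sets of libraries were clear of each other. The Wnt list held 3 higher and 6 lower of 31, and 1 of the 3 higher passed without Patellar library 4 or Achilles library 1, 3 or 4. FGF and IGF genes gave 5 higher and 4 lower of 21. Fgf9 was at 62.0, 39.9, 29.6 and 114 CPM in Patellar and 6.39, 11.5, 6.36 and 8.60 CPM in Achilles, higher by 2.90 ± 0.42 (adjusted p = 0.00189). The related ligand Fgf18 was higher by 2.26 ± 0.38, and the IGF-binding protein gene Igfbp7 by 1.99 ± 0.29, whereas Fgf13, an intracellular family member, was lower at -1.90 ± 0.29 (adjusted p = 0.00334, 0.00183 and 0.0023).

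Hedgehog and mechanosensing counts are likewise to be read against 12.1% of all genes higher and 15.3% lower. Hedgehog co-receptors Gas1 and Boc were higher by 1.34 ± 0.28 and 1.10 ± 0.27 (adjusted p = 0.00821 and 0.0155). Of 13 genes of the pathway tested, these 2 were higher and 1 was lower, the ligand gene Dhh (-2.05 ± 0.58, adjusted p = 0.0278). Dhh overlapped and did not pass without Patellar library 1 or 4 or Achilles library 1, 3 or 4 (adjusted p between 0.0581 and 0.0934). Nor did it pass by limma with voom (adjusted p = 0.0938) or with the mouse number as a block (adjusted p = 0.0949). Its lowest Achilles library, library 2 at 1.53 CPM, was also the lowest Achilles library in the Schwann cell and nerve share. The part of Schwann cells in the Dhh difference was not tested. Mechanosensing genes gave 6 higher and 4 lower of 17, and 2 of the 4 lower passed without Patellar library 4 or Achilles library 1 or 4. The stretch-activated channel gene Piezo2 was at 82.6, 57.6, 67.8 and 104 CPM in Patellar and 18.8, 27.4, 17.5 and 24.4 CPM in Achilles, and Piezo1 was at 88.9, 71.5, 87.5 and 80.5 CPM in Patellar and 44.3, 43.4, 22.7 and 33.8 CPM in Achilles. Neither overlapped, and they were higher by 1.82 ± 0.22 and 1.19 ± 0.21 (adjusted p = 0.00103 and 0.00387). The collagen receptor Ddr2 was higher by 0.85 ± 0.16, and Panx1, an ATP release channel, was lower at -2.05 ± 0.24 (adjusted p = 0.00512 and 0.000871). Il33, an alarmin cytokine of stromal cells, was at 133, 55.3, 72.9 and 132 CPM in Patellar and 26.0, 27.3, 14.8 and 25.05 CPM in Achilles, without overlap (2.08 ± 0.32, adjusted p = 0.0023).

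Markers of other cell types moved with the comparison. Of 58 skeletal muscle markers, 56 were lower and 0 higher, with a median of -4.08. The actin Acta1 was at 3169, 128, 336 and 895 CPM in Patellar and 18215, 15768, 34547 and 16976 CPM in Achilles, present in every library. Satellite cell and myogenic markers gave 11 lower of 14, neuromuscular junction genes 8 lower and 1 higher of 12, and Schwann cell and nerve markers 15 lower of 20. The Schwann list took 0.0813, 0.0988, 0.0579 and 0.0556% of Patellar and 0.389, 0.114, 0.673 and 0.376% of Achilles counts. Without replicate 3 of both tendons, 35 of the 56 muscle markers and 9 of the 15 Schwann markers passed, and without Patellar library 4, 37 of the 56 muscle markers did.

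Vessel, fat and blood markers moved less evenly. Of 16 pericyte and smooth muscle markers, 9 were lower and 0 higher, with a summed share of 0.178, 0.167, 0.121 and 0.108% of Patellar and 0.721, 0.425, 0.965 and 0.555% of Achilles counts. Des, among the 9, is also on the skeletal muscle list and makes up a large part of the Achilles share. It was at 386, 38.9, 48.1 and 133 CPM in Patellar and 2326, 2269, 4535 and 2550 CPM in Achilles. Of 20 endothelial markers 5 were lower, and Pecam1 did not pass (-0.81 ± 0.40, adjusted p = 0.162). Of the 5 endothelial calls, 1 passed without Achilles library 1, without Achilles library 3 or without Patellar library 4, and all 5 with the muscle covariate. Of the 9 pericyte and smooth muscle calls, 5 passed without each of the same 3 libraries and 3 with the muscle covariate. Adipocyte markers gave 6 higher and 0 lower of 21 and took 1.43, 4.44, 2.58 and 2.15% of Patellar and 2.45, 2.17, 1.44 and 3.39% of Achilles counts, so the shares overlapped, and Adipoq did not pass (1.13 ± 0.40, adjusted p = 0.0626), although it did without Patellar library 1 (adjusted p = 0.0284), by DESeq2, at a mean of at least 5 CPM and in thinned libraries (adjusted p between 0.0123 and 0.041). Of the 6 adipocyte calls, 3 passed without Patellar library 2 or 3 or Achilles library 1, 2 or 3, and 0 with the muscle covariate. Red blood cell genes gave 6 higher of 8, macrophage markers 2 higher and 2 lower of 17 and mast cell markers 0 of 10. Over all genes 12.1% were higher and 15.3% lower. The part of these cell types in the other differences was not tested beyond the muscle covariate.

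The muscle covariate ended most calls. The muscle marker shares did not overlap between the tendons, so the covariate cannot separate muscle content from tendon. Of the 121 genes named here that passed without it, not counting Des, 44 passed with it in the same direction, and for 75 the call ended with the direction kept (adjusted p between 0.0509 and 0.964). The 44 included Scx, Eya2, Lmx1b, Tbx5, Lhx9, Mab21l2, Twist1, all 7 Hoxc genes, Col11a1, Col12a1, Col15a1, Bmp1, Adamts3, Fgf9, Inhba, Piezo2, Thy1 and Il33, all but Hoxc11 higher in Patellar. They also included further lower genes, among them Slc38a3, Thbs1, Col4a2, Smad3 and Clic5, which is also present in skeletal muscle. Among the genes that did not pass with it, Pitx1 had a fold change of 2.25 there, Kera of 2.83, Ibsp of -4.06 and Spp1 of -3.05 (adjusted p = 0.0743, 0.0595, 0.0509 and 0.0847), while others were much nearer 0. Pon1 was at 0.97 with it, against 4.12 ± 0.68 without it, Slc9a2 at -0.68, against -5.15 ± 1.03, Fbxo40 at -0.89, Perm1 at -0.98, Crtap at 0.73 and Gas1 at 0.78 (adjusted p = 0.594, 0.715, 0.256, 0.52, 0.351 and 0.474). Pecam1 was the 1 named gene that passed with it and not without it, at -3.33 (adjusted p = 0.0167). Acta1 and Mgp had fold changes of 0.07 and 0.00 with it, barely on the other side of 0, so neither showed a direction (adjusted p = 0.948 and 1). Acta1 is itself among the markers averaged in the covariate.

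Among genes with a mean of at least 10 CPM, no overlap and no place on the lists of other cell types and RNA quality, the 10 largest rises included genes not described above. Adrb3, the beta-3 adrenergic receptor of fat cells, was at 28.4, 133, 70.4 and 37.2 CPM in Patellar and 2.31, 0.843, 0.690 and 2.05 CPM in Achilles (5.51 ± 0.64, adjusted p = 0.000919). Patellar library 2, the highest, also had the largest adipocyte share, 4.44%, whereas Achilles library 4, with a share of 3.39%, above 3 of the 4 Patellar libraries, was at 2.05 CPM. Faim2, an inhibitor of Fas-driven cell death, was at 51.4, 43.0, 24.4 and 54.6 CPM in Patellar and 0.958, 1.94, 0.637 and 3.42 CPM in Achilles (4.64 ± 0.54, adjusted p = 0.000927). The water channel gene Aqp2, best known from kidney, was at 20.9, 28.9, 16.04 and 22.5 CPM in Patellar and 1.07, 1.87, 0.637 and 1.69 CPM in Achilles (4.06 ± 0.37, adjusted p = 0.000482). Ifi27l2a, an interferon-induced gene, was at 1039.5, 1895, 1772 and 1335 CPM in Patellar and 96.9, 154, 105 and 229 CPM in Achilles, higher by 3.37 ± 0.35 (adjusted p = 0.000634). The long non-coding RNA Miat was at 23.8, 17.7, 18.1 and 19.9 CPM in Patellar and 2.46, 1.93, 2.32 and 2.07 CPM in Achilles, with no overlap (3.18 ± 0.19, adjusted p = 0.000121). The paraoxonase gene Pon1, the peptidase gene Dpp4 and the fibroblast surface glycoprotein gene Thy1 were higher by 4.12 ± 0.68, 3.08 ± 0.46 and 3.07 ± 0.24 (adjusted p = 0.00306, 0.00215 and 0.000419). The set also held Mab21l2 and Hoxc8.

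Among the 10 largest falls under the same limits were several genes of muscle fibres. Pla2g4e, a cytosolic phospholipase gene, was at 0.244, 0.106, 0.254 and 0.532 CPM in Patellar and 17.1, 15.98, 32.4 and 15.9 CPM in Achilles (-6.23 ± 0.51, adjusted p = 0.000419). Myo18b, Trim72, Synpo2l and Fbxo40, which act in sarcomeres, membrane repair, Z-discs and protein turnover of muscle fibres, had fold changes of -5.62 ± 0.80, -5.26 ± 0.74, -5.20 ± 0.73 and -5.10 ± 0.93. The transporter genes Slc38a3 and Slc9a2 and the myosin gene Myh14 had -5.36 ± 0.68, -5.15 ± 1.03 and -5.35 ± 0.72, and Col22a1 was described above. Fa2h, which makes the hydroxylated lipids of myelin, had -5.14 ± 1.20, and Achilles library 2, the lowest Achilles library at 2.59 CPM, was also the lowest in the Schwann cell and nerve share.

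Taking only genes whose mean level in supraspinatus was below that in Achilles left 486 eligible genes of 1740 lower ones. The 10 largest of these were Myh14, Fa2h and Col22a1 and then Alpk3, Atp1b4, Coro6, Asb10, Adprhl1, Klhl34 and Perm1, with fold changes of the last 7 between -4.97 ± 0.76 and -4.60 ± 0.80. Atp1b4, a muscle relative of the sodium pump beta subunits, was at 2.19, 0.759, 0.507 and 0.448 CPM in Patellar and 23.2, 27.8, 35.1 and 31.8 CPM in Achilles (adjusted p = 0.000624). For the 7, all Patellar libraries lay below all Achilles libraries, and Patellar library 1, with the largest muscle share of the 4, had the highest Patellar level in 6 of them.

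Cytoplasmic ribosomal protein genes were higher in 67 of 80 and lower in 0, with a median of 0.71, and all 80 fold changes were positive. Their summed share was 0.715, 0.651, 0.621 and 0.650% of Patellar and 0.476, 0.506, 0.486 and 0.465% of Achilles counts. Without Achilles library 1 the 67 calls fell to 43 and without Achilles library 4 to 45, and 32 passed with the muscle covariate. Rpl39 was at 65.4, 40.6, 57.1 and 53.9 CPM in Patellar and 28.7, 29.2, 32.4 and 31.7 CPM in Achilles (0.83 ± 0.15, adjusted p = 0.00498). Its relative Rpl39l was at 18.1, 12.2, 17.5 and 13.6 CPM in Patellar and 0.229, 0.323, 0.159 and 0.190 CPM in Achilles (6.08 ± 0.32, adjusted p = 4.69e-05), and reads of near-identical copies may have been split between these genes. The rRNA-like genes and 5 of 7 small non-coding RNAs were also higher, and the part of RNA quality was not tested.

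Metallothionein genes, which bind zinc and copper and respond to metals and glucocorticoids, were higher in Patellar for all 3 tested. They lie in 1 cluster on chromosome 8. Their promoters are shown because the 3 neighbours moved together. Each line gives the 250 bases before the RefSeq start on GRCm38.p6, plus strand, with capitals at matches to the metal response element core TGCACNC or TGCGCNC on either strand.
Mt1 (chr8:94178839-94179088): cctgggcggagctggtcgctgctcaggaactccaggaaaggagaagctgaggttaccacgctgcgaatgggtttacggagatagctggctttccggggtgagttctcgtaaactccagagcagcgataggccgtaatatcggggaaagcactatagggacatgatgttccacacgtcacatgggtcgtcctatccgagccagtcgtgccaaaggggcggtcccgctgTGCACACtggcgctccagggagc
Mt2 (chr8:94172368-94172617): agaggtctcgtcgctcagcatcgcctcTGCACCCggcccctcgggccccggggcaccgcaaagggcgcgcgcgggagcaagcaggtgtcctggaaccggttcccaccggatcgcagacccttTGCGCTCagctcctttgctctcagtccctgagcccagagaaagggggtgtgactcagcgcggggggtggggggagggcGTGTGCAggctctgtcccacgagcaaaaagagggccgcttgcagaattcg
Mt3 (chr8:94152357-94152606): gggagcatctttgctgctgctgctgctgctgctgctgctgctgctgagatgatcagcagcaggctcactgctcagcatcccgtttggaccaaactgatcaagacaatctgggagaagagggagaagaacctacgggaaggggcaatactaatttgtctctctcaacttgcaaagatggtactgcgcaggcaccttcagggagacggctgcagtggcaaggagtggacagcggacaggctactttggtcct
The Mt1 window held 1 match, the Mt2 window 3 and the Mt3 window 0. Of 27025 RefSeq promoters of the same length, 21.3% held at least 1 match and 1.28% held 3 or more. The matches are letters in a window and say nothing of binding. GENCODE M21 starts Mt2 at 94172664, downstream of the RefSeq start used for its window.

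Mt1 was at 1083, 507, 672 and 1179.7 CPM in Patellar and 189, 240.0, 239.6 and 240.2 CPM in Achilles. Mt2 was at 225, 98.0, 139.5 and 263 CPM in Patellar and 19.9, 24.4, 23.6 and 25.6 CPM in Achilles. Mt3 was at 97.6, 72.9, 78.8 and 220.2 CPM in Patellar and 5.37, 1.99, 17.3 and 7.09 CPM in Achilles. For each gene the lowest Patellar library was above the highest Achilles library, and Patellar libraries 1 and 4 were the highest 2 for Mt1, Mt2 and Mt3. The fold changes were 1.92 ± 0.28, 2.95 ± 0.30 and 3.89 ± 0.66 (adjusted p = 0.00198, 0.000624 and 0.00334). All 3 passed without each library in turn and with the muscle covariate. Mt4, the remaining listed member, was below the filter.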

How the data were processed

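RNA was sequenced from 4 Patellar and 4 Achilles libraries. Counts per gene were deposited by the authors as raw whole numbers for 41204 genes in 16 libraries. HISAT2, FastQC, edgeR and build mm10 are listed in the submitters' processing notes; the sources used here give no versions, read counter, strand setting or annotation release. Log2 fold changes and p-values in the authors' deposited table, per the file headers from their own comparisons, were used only for an overlap of calls.

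The 8 libraries alone were fitted with edgeR 4.0.16 in R 4.3.3 (filterByExpr, TMM scaling, robust quasi-likelihood test, 2-sided, Benjamini-Hochberg adjustment, threshold 0.05). The filter left out 19878 genes. An SE is the fold change divided by the root of its F statistic. The scripts were tested on simulated data. Named genes were the 10 higher and 10 lower genes of largest fold change that had a mean of at least 10 CPM and no overlap between the tendons and kept their call without rRNA-like genes and with scaling free of muscle and other high-abundance genes. Predicted genes and markers of other cells were left out. Added to them were the 10 lower genes described with supraspinatus and members of the gene lists. Members and lists were chosen with earlier results of these data known. Positions are from GENCODE M21 (GRCm38, which is mm10). Alternatives used DESeq2 1.42.0, limma 3.58.1, other scalings and filters, covariates and left-out libraries.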

Additional observations from a re-analysis of the deposited data

Results flagged for a closer look

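In 11 of 284 groups of 4 libraries examined, 1 library stood far from the other 3: its gap to the nearest library, divided by the range of the group, was above Dixon's 95% critical value for 4 values. Chance gives this in about 1 of 20 groups.

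In Patellar, library 1 stood highest for 4 genes. Prg4 was at 2187 CPM there, against 1338 to 1370.0 CPM in the other 3 (ratio 0.962). Slc9a2 was at 2.58 CPM, against 0.0799 to 0.254 CPM (0.931), Grem1 at 0.341 CPM, against 0.0799 to 0.112 CPM (0.877), and Mgp at 410.5 CPM, against 209.6 to 241 CPM (0.842). The levels of Slc9a2 in the other 3 Patellar libraries, and of Grem1 in all Patellar libraries, rest on few counts. Fa2h was highest in Patellar library 2, at 1.78 CPM against 0 to 0.171 CPM (0.904), and Mt3 in Patellar library 4, at 220.2 CPM against 72.9 to 97.6 CPM (0.832).

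In Achilles, library 3, which also had the largest muscle share, stood highest for Acta1 at 34547 CPM, against 15768 to 18215 CPM in the other 3 (0.87), for Pla2g4e at 32.4 CPM, against 15.9 to 17.1 CPM (0.924), and for Slc38a3 at 114 CPM, against 63.3 to 67.1 CPM (0.926). Mt1 was lowest in Achilles library 1, at 189 CPM against 239.6 to 240.2 CPM (0.988), and Meg3 highest in Achilles library 2, at 58.4 CPM against 44.1 to 45.7 CPM (0.885).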

How the results depend on the processing

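The count of genes called, 5854, was 3787 with the mouse number as a replicate block, 947 (494 higher, 453 lower) with the muscle covariate, 9131 with all 16 libraries in the fit and 1156 (318 higher, 838 lower) when a change of more than 1 on the log2 scale was tested. Leaving out each library in turn gave 3851 to 6983. The counts under the other 9 settings lay between 4391 (mean of at least 5 CPM) and 7496 (DESeq2), among them 5133 without replicate 3 of both tendons, a setting chosen after seeing the data. Scaling without muscle, rRNA-like, mitochondrial and red cell genes gave 2902 higher and 2953 lower. Same-numbered libraries deviated from their tendon's mean with correlations of -0.103, 0.005, 0.005 and 0.031 across genes, and no Patellar library correlated best with the Achilles library of its own number. These correlations cannot show whether animals were shared. The labels state no pairing, so the libraries were not treated as pairs. Of 121 genes named and called, 117 kept their call under the block, 44 with the muscle covariate, 78 for a change above 1, and 113 to 120 without each library in turn. Of 104 counts of list members in 1 direction, 71 moved by more than 1.5 times with the muscle covariate, 62 when a change above 1 was tested, and 12 to 32 without each library in turn. With the muscle covariate the fold changes of Acta1 and Mgp were near 0, at 0.072 and 0.00, against -4.24 and -0.90 without it. Acta1 is itself among the markers averaged in the covariate, so its fold change there says nothing of the tendons. The cause for Mgp was not tested. Patellar libraries are shallower, and genes of low count are limited by it.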

Other observations

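Neighbouring genes of an imprinted region on chromosome 12 were higher in Patellar. They were chosen after their values were seen. Meg3 (109541001 to 109571726), a maternally expressed long non-coding RNA, was at 361, 243, 244 and 320 CPM in Patellar and 44.1, 58.4, 45.7 and 44.5 CPM in Achilles, without overlap. Its log2 fold change was 2.60 ± 0.19 (SE, n = 4 each, adjusted p = 0.000288 by edgeR). Rian and Mirg, which lie downstream of it and host small RNAs, were higher by 2.93 ± 0.25 and 3.63 ± 0.29 (adjusted p = 0.000421 and 0.000419). Rtl1, which lies on the opposite strand, was higher by 3.49 ± 0.46 (adjusted p = 0.00141). The strand setting of the counts is not given, so reads of Rtl1 and of its antisense transcript cannot be told apart. The protein-coding genes at either end of the region did not pass. Dlk1 was at 7.99 ± 5.34 CPM in Patellar and 4.27 ± 2.41 CPM in Achilles (SD, n = 4 each), with a fold change of 0.90 ± 0.61, and Dio3 had -1.37 ± 0.64 (adjusted p = 0.303 and 0.146). The 4 higher genes passed without each library in turn and with the muscle covariate.

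A second run of neighbours lies on chromosome 15. Faim2 (99497012 to 99528165) and Aqp2 (99579055 to 99584547), both described above, are followed by the water channel gene Aqp5 (99590782 to 99594829), chosen after its values were seen. Aqp5 was at 10.9, 7.38, 6.56 and 6.75 CPM in Patellar and 0.604, 0.583, 0.127 and 0.257 CPM in Achilles, higher by 4.33 ± 0.51 (adjusted p = 0.000976). Further on, Racgap1 (99620496 to 99651656), which acts in cell division, overlapped between the tendons and did not pass (0.58 ± 0.36, adjusted p = 0.253).

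Of 15 hypoxia genes tested, 2 were higher and 7 lower in Patellar, with a median log2 fold change of -0.92, against 12.1% of all genes higher and 15.3% lower. Of the 7, 1 passed with the muscle covariate. Circadian clock genes gave 1 higher and 6 lower of 19. Of the 6, 1 passed without Achilles library 2 or 4, 2 without Achilles library 3 or Patellar library 2, 3 without Patellar library 1 and 0 with the muscle covariate. Cell cycle genes gave 2 higher and 0 lower of 28, below the share over all genes. Immediate-early and stress genes gave 4 higher and 1 lower of 37, against 12.1% and 15.3% of all genes.

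The authors' deposited table lists 13452 genes for this pair of tendons, of which 6614 have an FDR under 0.05. Its fold runs as Achilles over Patellar, with 3310 positive and 3304 negative. The table was made from the same libraries, so its calls are no independent support. Of its calls, 4676 were also made here, 70.7% of the 6614 and 79.9% of the 5854, and all had the same direction once the sign was turned.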
